A study of Mus musculus with 15 samples.

Results

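The organic anion transporters of the Slc22 family carry negatively charged metabolites, toxins and drugs across the membranes of the kidney tubule. The 8 genes described here, Slc22a6, Slc22a7, Slc22a8, Slc22a13, Slc22a19, Slc22a28, Slc22a29 and Slc22a30, were chosen by name, as the rows of the deposited gene count table whose Ensembl identifiers map to these symbols. They are 8 of the 54752 genes in the table. RNA was sequenced from mouse kidney tubule fragments in 4 groups. These were proximal tubule of Cldn10a KO mice (n = 3, replicates 4, 5 and 7), proximal tubule of WT mice (n = 4, replicates 1, 2, 3 and 6), distal convoluted tubule of Cldn10a KO mice (n = 4, replicates 5 to 8) and distal convoluted tubule of WT mice (n = 4, replicates 1 to 4). Cldn10a is the claudin-10 form of proximal tubule tight junctions, where it forms a paracellular anion channel. Each library came from a pool of 10 proximal or about 20 distal tubule fragments per kidney, obtained by enzymatic tubule preparation, and strain, age and sex are not stated in the labels. Whether each library is a separate animal is not given, and the p-values therefore speak only of variation among these libraries.

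In the proximal tubule, Slc22a6 (OAT1) and Slc22a8 (OAT3) sit in the basolateral membrane and take organic anions up from the blood in exchange for dicarboxylates such as alpha-ketoglutarate. The dicarboxylates are returned to the cell by the sodium-coupled carrier Slc13a3, and sodium is pumped out by the Na,K-ATPase. Slc22a7 (OAT2) is a further organic anion and nucleotide-base carrier, Slc22a13 (OAT10) is an apical urate and nicotinate exchanger as described for the human protein, and Slc22a19 (Oat5) is an apical carrier of steroid sulfates in rodents. Slc22a28, Slc22a29 and Slc22a30 belong to a rodent group of close relatives that lies beside Slc22a19. Several of these genes are known to be expressed at different levels in male and female rodent kidneys.

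Total counts ranged from 28729339 to 51764746 per library, and 67.3 to 82.9% of them fell on mitochondrial genes, so the nuclear protein-coding genes received 8.0 to 19.7%. Levels are given as CPM, counts relative to library size, scaled by the trimmed mean of M-values (TMM). Cldn10 had 0 counts in all 3 proximal KO libraries, against 11.2, 28.6, 28.7 and 17.5 CPM in proximal WT libraries. The counts are per gene and do not separate Cldn10a from other Cldn10 forms. The 8 markers of proximal tubule summed to 4910 to 5430 CPM in proximal KO and 4390 to 5450 CPM in proximal WT libraries, against 8.79 to 16.8 CPM over the distal libraries. The 8 markers of distal convoluted tubule summed to 5.27 to 9.25 CPM over the proximal libraries and 2950 to 4370 CPM over the distal libraries. Each segment thus carried the markers of its label. The distal libraries also held markers of neighbouring segments. The 6 markers of thick ascending limb summed to 193 to 432 CPM over the distal libraries. The 7 markers of connecting tubule and collecting duct summed to 119 to 237 CPM. The Y-linked genes Kdm5d, Uty, Ddx3y and Eif2s3y had counts in all 15 libraries, and Xist did not exceed 0.0581 CPM in any.

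Slc22a6 and Slc22a8, the basolateral uptake pair, made up most of the summed CPM of the 8 genes in the proximal tubule. This sum leaves out 17 other Slc22 genes. Those averaged 329 CPM in sum in proximal KO and 302 CPM in proximal WT, against 446 and 307 CPM for the 8. Slc22a6 supplied 41.27 ± 6.87% of the summed CPM of the 8 genes in proximal KO libraries (SD, n = 3) and 38.27 ± 9.43% in proximal WT libraries (SD, n = 4). Slc22a8 supplied 42.46 ± 3.27% in proximal KO and 44.48 ± 7.14% in proximal WT libraries. Per kilobase of exon, Slc22a8 stood at 48 CPM in proximal KO and 34.9 CPM in proximal WT, and Slc22a6 stood at 47.3 CPM in proximal KO and 29.5 CPM in proximal WT. The ranges of these 2 neighbours in the order overlapped in both genotypes. Slc22a28 followed with 16.8 CPM per kilobase in proximal KO and 15.5 in proximal WT, and Slc22a30 with 8.91 in proximal KO and 5.85 in proximal WT. Neither range overlapped that of the gene above it. The other 4 genes stood at or below 0.921 CPM per kilobase. In proximal WT, Slc22a29 (0.829) was above Slc22a7 (0.0774), Slc22a13 (0.0444) and Slc22a19 (0.0207), whose ranges overlapped. In proximal KO, Slc22a7 (0.921), Slc22a13 (0.671), Slc22a29 (0.616) and Slc22a19 (0.358) had overlapping ranges.

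**Figure D1:**
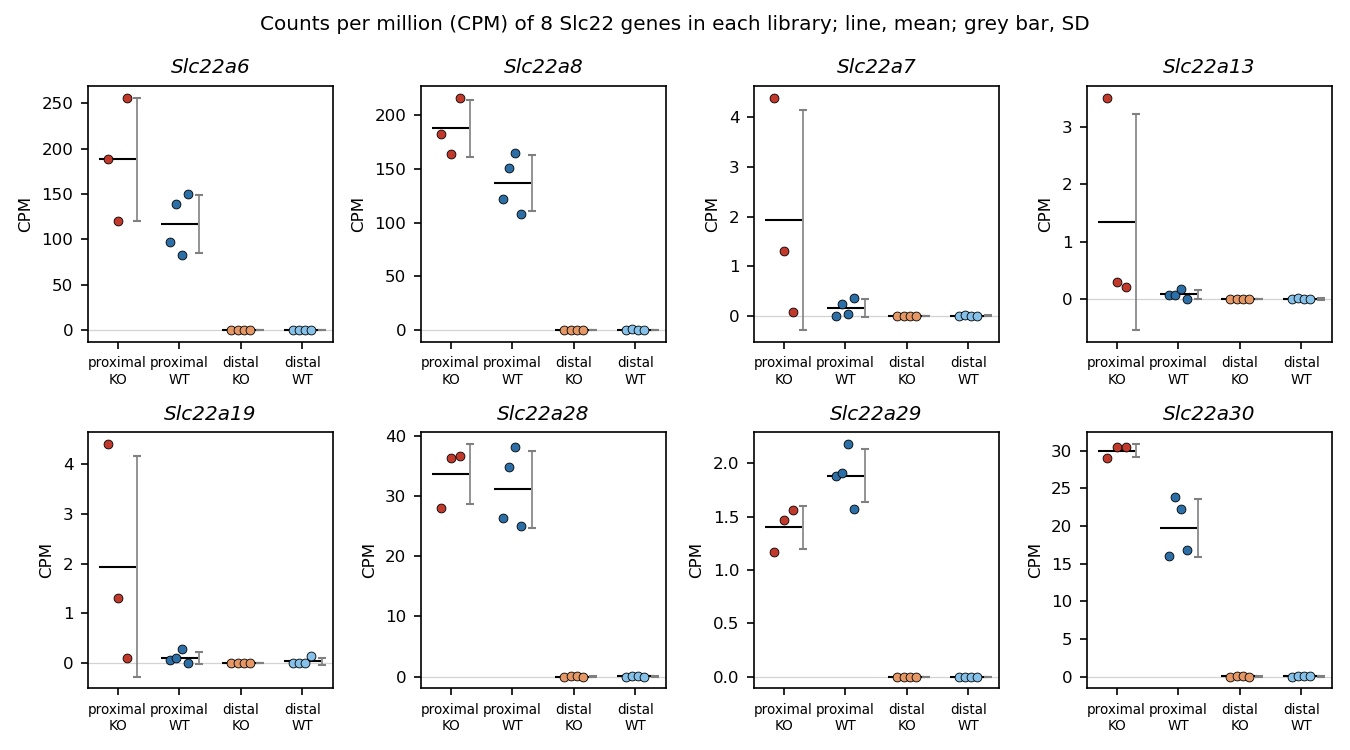
Each panel shows the CPM of a gene (vertical axis, linear from 0) in every library of the 4 groups, with the group mean as a line and the SD as a grey bar. Slc22a6 and Slc22a8 lie between 83.3 and 256 CPM in the proximal libraries, and all 8 genes lie near 0 in the distal libraries.

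Of the 8 genes, 6 lie on mouse chromosome 19 within 955 kb (GRCm38, GENCODE M21). Slc22a8 (ENSMUSG00000063796, chr19:8591254-8611835, + strand) and Slc22a6 (ENSMUSG00000024650, chr19:8618039-8628299, + strand) are neighbours separated by 6.2 kb. On the - strand beside them are Slc22a19 (ENSMUSG00000024757, chr19:7673061-7711310), Slc22a28 (ENSMUSG00000063590, chr19:8062209-8131982), Slc22a29 (ENSMUSG00000075044, chr19:8160165-8218900) and Slc22a30 (ENSMUSG00000052562, chr19:8335371-8405111). Slc22a7 (ENSMUSG00000067144) lies at chr17:46432183-46438457 and Slc22a13 (ENSMUSG00000074028) at chr9:119192974-119209098, both on the - strand. RefSeq promoter sequences (GRCm38.p6, 250 bases before to 50 after each start) were found for 7 of the 8 genes, all but Slc22a7. The promoters of the 2 most abundant genes are shown because both genes were counted almost wholly in the proximal tubule, where HNF1 and HNF4 are known transcription factors. The capitals mark the HNF1 half-site GTTAAT, searched on both strands (ATTAAC on the other). Slc22a6 is at chr19:8617746-8618045 and Slc22a8 at chr19:8592932-8593231, both on the + strand. The Slc22a8 window lies inside the gene span given above, so its RefSeq start is downstream of the start of that span.
Slc22a6: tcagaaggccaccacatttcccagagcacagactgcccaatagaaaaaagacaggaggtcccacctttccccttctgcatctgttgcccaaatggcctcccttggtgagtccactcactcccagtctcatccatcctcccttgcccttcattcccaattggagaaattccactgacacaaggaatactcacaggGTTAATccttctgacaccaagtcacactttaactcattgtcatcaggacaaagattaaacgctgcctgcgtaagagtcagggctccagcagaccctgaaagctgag
Slc22a8: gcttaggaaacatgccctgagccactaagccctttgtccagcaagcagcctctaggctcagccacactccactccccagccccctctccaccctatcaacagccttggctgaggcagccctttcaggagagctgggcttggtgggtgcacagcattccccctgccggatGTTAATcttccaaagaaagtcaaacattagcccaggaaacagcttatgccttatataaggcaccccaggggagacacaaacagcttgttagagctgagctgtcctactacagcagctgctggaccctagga
The half-site lay 56 bases before the RefSeq start of Slc22a6 and 81 bases before that of Slc22a8, on the sense strand. It was also present 29 bases before the Slc22a29 start on the other strand, and it was not in the window of Slc22a13, Slc22a19, Slc22a28 or Slc22a30. The same letters occur in 7.2% of 27025 RefSeq mouse promoters of this length. The HNF4 motif CAAAGTNCA, which occurs in 1.4% of them, matched in none of the 7 windows. The promoters of Slc22a6 and Slc22a8 had 50.5% identity over 285 aligned bases.

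All 8 genes were at or near 0 in the distal convoluted tubule. Slc22a6 had 5, 5, 4 and 8 counts in the distal KO libraries and 1, 4, 5 and 5 counts in the distal WT libraries, against 4395 to 11626 counts in the proximal libraries. In summed counts scaled by depth, Slc22a6 was 1360-fold higher in proximal than in distal KO libraries (exact 95% interval 896 to 2160) and 1220-fold higher in proximal than in distal WT libraries (741 to 2190). These intervals cover counting error only. Slc22a8 was 2110-fold higher in proximal than distal KO (1260 to 3850) and 484-fold higher in proximal than distal WT (361 to 663). Its distal counts were 1, 1, 9 and 3 in KO and 4, 30, 2 and 9 in WT libraries, so that the WT sum rested largely on replicate 2. Slc22a28 was 2660-fold (735 to 21900) and Slc22a30 1560-fold (535 to 7590) higher in proximal than distal KO. Both were also higher in proximal than distal WT, Slc22a28 by 709-fold (344 to 1760) and Slc22a30 by 349-fold (184 to 763). Slc22a29 had 0 counts in all 8 distal libraries. Set against a floor of 3 counts over the group, it was at least 73.6-fold higher in proximal KO than distal KO and at least 100-fold higher in proximal WT than distal WT.

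The 3 genes scarcest in proximal WT were also nearly absent from the distal counts. Slc22a7, Slc22a13 and Slc22a19 had 0 counts in every distal KO library, and in distal WT they had 1, 1 and 7 counts in all. Against the floor of 3 counts, proximal KO was at least 92.1-fold higher than distal KO for Slc22a7, at least 63.4-fold for Slc22a13 and at least 92.5-fold for Slc22a19. In WT the ratio of proximal to distal counts was 24.5 for Slc22a7 (4.08 to 1000), 14.7 for Slc22a13 (2.32 to 613) and 2.69 for Slc22a19 (1.12 to 7.42). In the fit across all genes with limma-voom, 6 of the 8 genes passed the filter on low counts in KO and all 6 were called higher in proximal tubule, as were 20.4% of all 13834 genes tested (adjusted p under 0.05). In WT, 5 passed the filter and all 5 were called higher in proximal tubule, as were 23.6% of all 13616 genes. These genes passed the filter through their proximal counts, so the counts of calls describe and do not support the difference. Summed over the 8 genes, the distal level was 0.0585% of the proximal one in KO and 0.164% in WT. The summed level of the 8 general proximal markers in distal libraries was 0.245% of the proximal level in KO and 0.284% in WT. These marker shares rested largely on Lrp2. It averaged 9.74 of the 12.8 CPM of the distal marker sum in KO and 10 of the 14.5 CPM in WT. Whether the 8 transporters were lower in distal libraries than general proximal markers was therefore not settled by these shares. In bulk tubules, fewer cells of a type and less RNA per cell cannot be told apart.

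The question of the proximal comparison is how loss of the proximal anion channel Cldn10a changes the transcripts of the cells that carry it. None of the 8 genes had an adjusted p under 0.05 between proximal KO and proximal WT tubules (limma-voom, Benjamini-Hochberg over 13229 genes, of which 22, or 0.166%, were called). The unadjusted limma p was under 0.05 for 3 of the 8, Slc22a6, Slc22a8 and Slc22a30, as it was for 7.38% of all genes. The log2 change was above 0 for 7 of the 8, against 48.4% of all genes, and the median over the 8 was 0.63, against -0.01 over all genes.

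Slc22a6 had 189, 120 and 256 CPM in proximal KO libraries 4, 5 and 7, against 97.4, 139, 83.3 and 150 CPM in proximal WT libraries 1, 2, 3 and 6. KO libraries 4 and 7 lay above every WT library, and KO library 5 lay inside the WT range. The log2 change was 0.65 ± 0.26 (SE, 95% interval 0.09 to 1.2, limma adjusted p = 0.589), and the exact two-sided permutation test of CPM gave p = 0.143, where the smallest value 3 against 4 libraries allow is 0.029. Slc22a8 had 182, 164 and 216 CPM in proximal KO libraries, against 122, 151, 165 and 108 CPM in proximal WT libraries. The groups overlapped by KO library 5 and WT library 3 alone. Its log2 change was 0.46 ± 0.17 (SE, 0.08 to 0.83, limma adjusted p = 0.577). Together with the less abundant members, the 8 genes summed to 446 ± 93.1 CPM in proximal KO (SD, n = 3) and 307 ± 35.9 CPM in proximal WT (SD, n = 4). The lowest KO sum was 356 CPM and the highest WT sum 351 CPM.

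Slc22a30 had the least spread relative to its mean in the proximal KO group, with an SD of 2.96% of the mean. It had 29, 30.5 and 30.5 CPM in proximal KO libraries, against 16, 23.8, 22.2 and 16.8 CPM in proximal WT libraries. All 3 KO libraries lay above all 4 WT libraries, a pattern of no overlap in the same direction that 4.44% of all genes showed. The log2 change was 0.61 ± 0.17 (SE, 0.24 to 0.99, limma adjusted p = 0.293), and the exact permutation p was 0.029. Its close relative Slc22a28 had 28, 36.4 and 36.7 CPM in proximal KO libraries, against 26.4, 34.8, 38.1 and 25.1 CPM in proximal WT libraries. These groups overlapped over most of their range, with a log2 change of 0.12 ± 0.18 (SE, -0.28 to 0.52, limma adjusted p = 0.918). Slc22a29 was the only gene of the 8 with a negative change. It had 1.17, 1.47 and 1.56 CPM in proximal KO libraries, against 1.88, 1.91, 2.18 and 1.57 CPM in proximal WT libraries. The groups did not overlap but nearly touched, a pattern that 3.54% of all genes showed in this direction, and the log2 change was -0.43 ± 0.28 (SE, -1.03 to 0.17, limma adjusted p = 0.778). In all, 3 of the 8 genes had groups that did not overlap, Slc22a13, Slc22a29 and Slc22a30, against 7.97% of all genes tested. For Slc22a13 and Slc22a29 this rested on the scaling. KO library 7 and WT library 3 each had 10 counts of Slc22a13. Slc22a29 had 71 counts in KO library 7 and 69 in WT library 6.

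**Figure D2:**
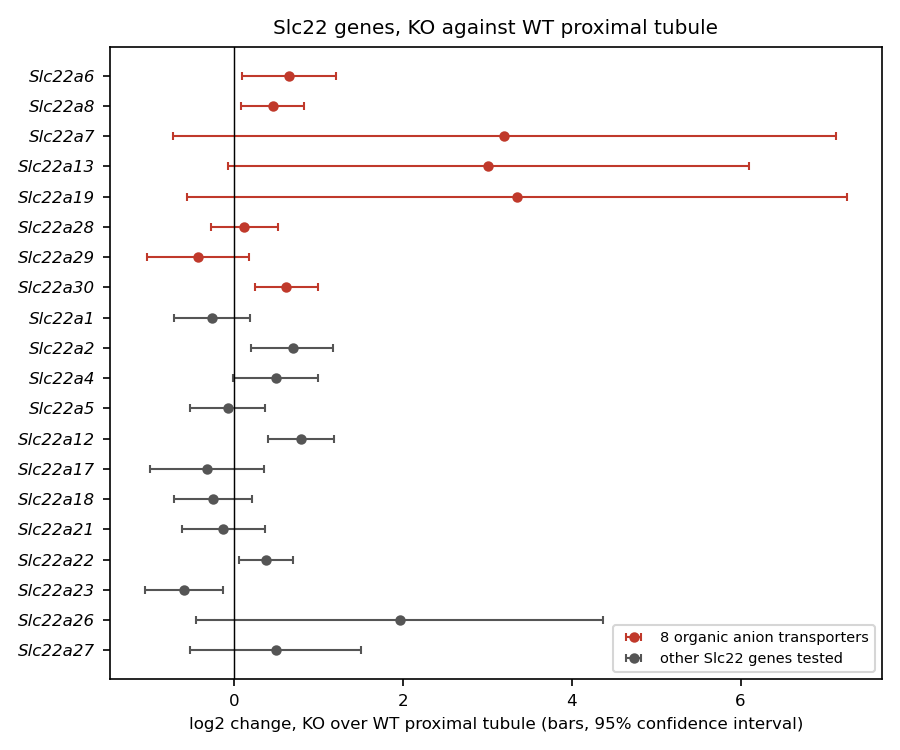
Points are log2 changes of proximal KO over proximal WT tubules (horizontal axis) with 95% confidence intervals, for the 8 organic anion transporters (red) and the other Slc22 genes that passed the filter (grey). The intervals of Slc22a6, Slc22a8 and Slc22a30 lie above 0, those of Slc22a7, Slc22a13 and Slc22a19 span several log2 units, and none of these genes has an adjusted p under 0.05.

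Slc22a7, Slc22a13 and Slc22a19 were scarce in the proximal tubule except in 1 or 2 KO libraries. Slc22a7 had 158, 53 and 4 counts in proximal KO libraries 4, 5 and 7 (4.4, 1.32 and 0.0881 CPM), against 0, 12, 2 and 16 counts in proximal WT libraries 1, 2, 3 and 6 (0, 0.249, 0.0379 and 0.364 CPM). KO libraries 4 and 5 were above every WT library and KO library 7 was not. Slc22a19 had 158, 53 and 5 counts in the same KO libraries (4.4, 1.32 and 0.11 CPM), against 3, 5, 15 and 0 counts in WT libraries (0.062, 0.104, 0.284 and 0 CPM). Its counts equalled those of Slc22a7 in KO libraries 4 and 5. The Slc22a7 transcripts share no stretch of 50 bases with another gene. Slc22a13 had 126, 12 and 10 counts in KO libraries (3.51, 0.298 and 0.22 CPM), against 4, 4, 10 and 0 counts in WT libraries (0.0826, 0.0829, 0.189 and 0 CPM), so that KO library 4 alone stood far above the rest. The log2 changes were 3.2 ± 1.82 for Slc22a7, 3.01 ± 1.44 for Slc22a13 and 3.35 ± 1.82 for Slc22a19 (SE), with limma adjusted p of 0.749, 0.688 and 0.738. Without KO library 4 they were 2.05, 1.88 and 2.24. KO library 7 lay inside the WT range for Slc22a7 and Slc22a19. The exact permutation p was 0.0857 for Slc22a7, 0.029 for Slc22a13 and 0.0571 for Slc22a19. The value for Slc22a13 rested on KO library 7 lying just above WT library 3, with 10 counts in each.

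Markers of the straight proximal segment, the last stretch of the proximal tubule, were higher in KO than in WT libraries as a sum. Single markers differed in their order among the libraries. The 8 straight-segment markers summed to 2730, 2050 and 2880 CPM in proximal KO libraries 4, 5 and 7, against 736, 1360, 589 and 1760 CPM in proximal WT libraries 1, 2, 3 and 6. All 8 passed the filter, all 8 had a log2 change above 0 (median 1.21), and 2 were called higher, Atp11a (1.62 ± 0.25, limma adjusted p = 0.0269) and Acy3 (1.12 ± 0.19, limma adjusted p = 0.0381). Slc7a13, a cystine and acidic amino acid carrier of that segment, had 86.2, 79.7 and 34.3 CPM in KO libraries, against 7.07, 20.6, 2.16 and 47.3 CPM in WT libraries. Slc7a13 was highest in KO libraries 4 and 5, as were Slc22a7 and Slc22a19, but it was picked after the values were seen. Ghr was also highest in KO libraries 4 and 5, with 147, 169 and 116 CPM in KO and 75 to 102 CPM in WT libraries. For every other marker of the list, some other library was above KO library 4 or KO library 5. Kap had 1900, 1190 and 1930 CPM and Acy3 437, 443 and 640 CPM in KO libraries 4, 5 and 7. Slc5a1 had 9.25, 5.19 and 4.08 CPM in these KO libraries and was highest in WT library 6, at 10.8 CPM. The summed markers, of which Kap was the largest part in each KO library, were highest in KO library 7. In that library Slc22a7 had 4 counts and Slc22a19 had 5. Among WT libraries the summed markers were lowest in library 3, which had the most WT counts of Slc22a13 and Slc22a19. The 8 markers of the early segments summed to 1420, 1870 and 1600 CPM in KO libraries, against 2340, 2050, 2210 and 1920 CPM in WT libraries, with all 8 log2 changes below 0 (median -0.58) and 0 called. No marker of either list was at 0 over a proximal group. The part of segment makeup in the values of the transporters was not tested. The 6 endothelial markers summed to 32.8, 33.1 and 16.7 CPM in KO libraries, against 10.6, 16.6, 20.4 and 20.3 CPM in WT libraries, and their part was not tested either.

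**Figure D3:**
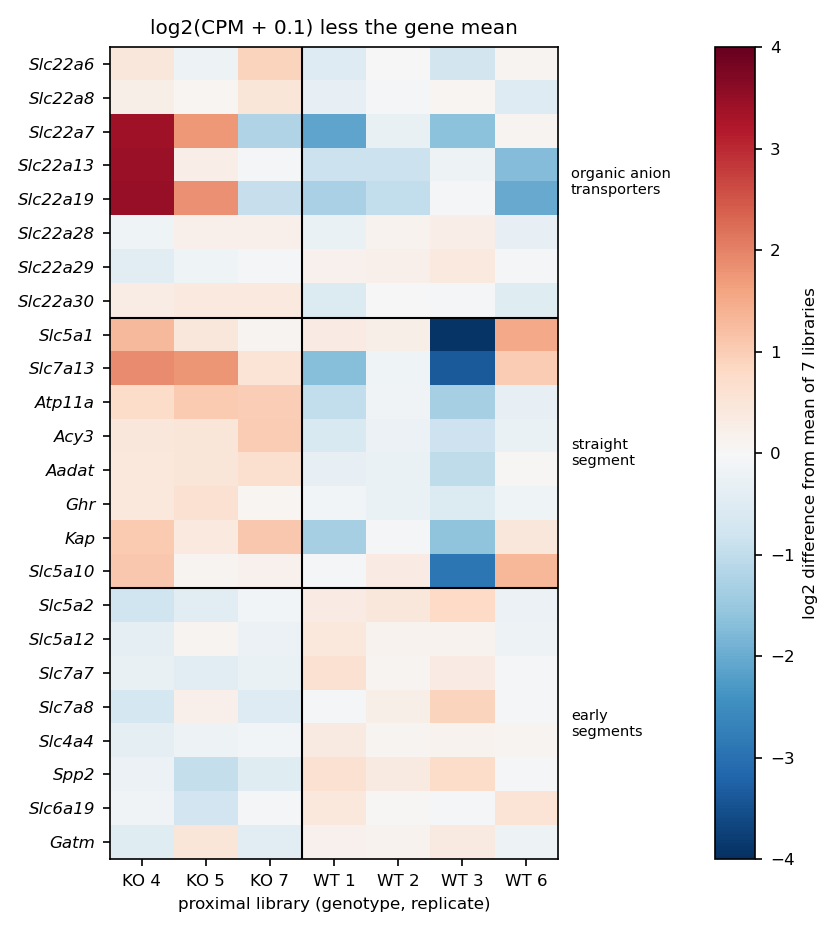
Colours give log2(CPM + 0.1) of each gene (rows) in each proximal library (columns, KO then WT) less the mean of that gene over the 7 libraries, for the transporters, the straight-segment markers and the early-segment markers. Slc22a7 and Slc22a19 are red in KO libraries 4 and 5, Slc22a13 in KO library 4, and the straight-segment markers are mostly red in KO and blue in WT libraries 1 and 3.

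The labels number the libraries, and proximal KO library 7 and proximal WT library 6 carry lower numbers than the other 13. Within that pair, KO over WT was 1.71-fold for Slc22a6, 2.01-fold for Slc22a8, 1.82-fold for Slc22a30, 1.46-fold for Slc22a28, 0.997-fold for Slc22a29 and 0.242-fold for Slc22a7, while Slc22a13 and Slc22a19 were at 0 in the WT library. Among the other 5 proximal libraries the ratio of the KO to the WT mean was 1.44 for Slc22a6, 1.18 for Slc22a8, 1.44 for Slc22a30, 0.973 for Slc22a28, 0.663 for Slc22a29, 29.9 for Slc22a7, 16.1 for Slc22a13 and 19.1 for Slc22a19. Slc22a6, Slc22a8 and Slc22a30 were above 1 in both sets, and Slc22a7 and Slc22a28 were on opposite sides of 1.

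Slc22a28 and Slc22a30 are near-identical copies, and reads could be divided between them in counting. Their longest open reading frames, 1659 bases each, were 98.8% identical, against 92.3% for either of them with Slc22a29, about 75.5 to 75.8% for these 3 with Slc22a19, and 51.9 to 59.4% among all other pairs of the 8. Of the 50-base stretches of the Slc22a28 transcripts, 53.86% also occur in another gene, nearly all of them in Slc22a30. The same share was 34.21% for Slc22a30, 28.65% for Slc22a29 and 36.01% for Slc22a13, which shares them with the pseudogene Slc22a13b-ps, and 0 for Slc22a6. Levels of these 4 genes may depend on how reads from such stretches were counted. These shares do not measure the error of a level, and its size was not tested. The promoters of the pair are shown because the likeness extends into them. Slc22a28 is at chr19:8131933-8132232 and Slc22a30 at chr19:8405056-8405355, both on the - strand, and the capitals mark the bases that differ.
Slc22a28: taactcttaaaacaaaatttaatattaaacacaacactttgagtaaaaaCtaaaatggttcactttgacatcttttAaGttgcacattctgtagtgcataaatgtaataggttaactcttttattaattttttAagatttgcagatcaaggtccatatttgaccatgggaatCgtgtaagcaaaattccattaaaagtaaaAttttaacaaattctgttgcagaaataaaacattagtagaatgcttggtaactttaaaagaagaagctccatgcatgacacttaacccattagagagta
Slc22a30: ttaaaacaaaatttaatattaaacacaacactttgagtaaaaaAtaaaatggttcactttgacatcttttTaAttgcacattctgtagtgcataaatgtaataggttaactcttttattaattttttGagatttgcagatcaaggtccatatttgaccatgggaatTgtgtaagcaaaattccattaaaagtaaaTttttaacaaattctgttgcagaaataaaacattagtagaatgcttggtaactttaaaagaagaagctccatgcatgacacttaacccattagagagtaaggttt
Over 294 aligned bases the 2 promoters were 98.0% identical, with 6 mismatches and an offset of 6 bases at the ends. The Slc22a29 promoter was 74.4% identical to that of Slc22a28 and 78.6% to that of Slc22a30. All 3 were rich in A and T, with 28.3% G and C for Slc22a28, 27.7% for Slc22a30 and 36.3% for Slc22a29, against 50% for Slc22a6, 55% for Slc22a8 and a median of 52.7% over all mouse promoters in the table.

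Slc22a30 took a larger share of the counts of the pair in KO than in WT proximal libraries. It took 50.8% of the summed Slc22a28 and Slc22a30 counts in proximal KO library 4 (exact 95% interval 48.6 to 53), 45.6% in library 5 (43.7 to 47.5) and 45.4% in library 7 (43.6 to 47.2). The share was 37.8% in proximal WT library 1 (35.7 to 39.9), 40.6% in library 2 (38.8 to 42.5), 36.9% in library 3 (35.2 to 38.6) and 40.1% in library 6 (37.8 to 42.4). All KO shares were above all WT shares, 47.3 ± 3.06% in KO (SD, n = 3) and 38.9 ± 1.78% in WT (SD, n = 4). This pair was singled out after the values were seen. Over all 28 pairs of the 8 genes, the ratio of the 2 levels did not overlap between genotypes in 6, and the exact permutation p of 0.029, the smallest possible, became 0.133 after Benjamini-Hochberg adjustment over the 28. With the counts of the pair summed to 1 gene, the log2 change between proximal KO and WT was 0.33 ± 0.17 (SE, -0.04 to 0.7, limma adjusted p = 0.733).

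**Figure D4:**
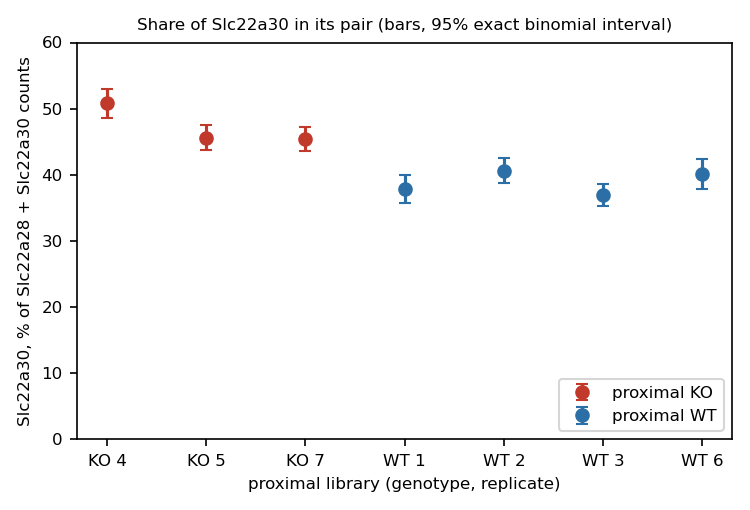
Points give Slc22a30 as a percent of the summed Slc22a28 and Slc22a30 counts (vertical axis from 0) in each proximal library, with exact 95% binomial intervals for counting error. The 3 KO libraries lie between 45.4 and 50.8%, above the 4 WT libraries between 36.9 and 40.6%.

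In the distal convoluted tubule, none of the 8 genes reached the filter, so KO and WT could not be compared in the fit across genes, in which 0 of 12968 genes (0%) had an adjusted p under 0.05 and 924 (7.13%) an unadjusted p under 0.05. Slc22a6 averaged 0.14 ± 0.0352 CPM in distal KO and 0.0905 ± 0.0404 CPM in distal WT (SD, n = 4 each, exact permutation p = 0.114). Slc22a8 averaged 0.0871 ± 0.0932 CPM in distal KO and 0.267 ± 0.285 CPM in distal WT (SD, n = 4 each, exact permutation p = 0.314). Slc22a28 had 2 counts over the distal KO and 7 over the distal WT libraries, and Slc22a30 had 3 over the distal KO and 9 over the distal WT libraries. At these counts, differences between the genotypes were not detectable. Distal WT library 2 held the highest summed level of the 8 genes, 1.03 CPM, against 0.157 to 0.471 CPM in the other distal libraries. Its general proximal markers summed to 16.2 CPM, inside the distal range. The difference between segments in the KO minus WT change was called for 0 of the 8 genes and for 0% of the 15279 genes tested (limma-voom), of which 849 (5.56%) had an unadjusted p under 0.05, and for none of the 8 was that p under 0.05. It was 0.07 ± 1.28 for Slc22a6 (SE, -2.58 to 2.73), 1.86 ± 1.02 for Slc22a8 (-0.25 to 3.97) and 1.68 ± 1.17 for Slc22a30 (-0.76 to 4.11) on the log2 scale, intervals wide enough to hold changes of several fold either way for Slc22a6.

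Among 17 other Slc22 genes, which include cation, carnitine and urate carriers, 12 passed the filter in the proximal comparison, 0 were called, 6 were above 0 and the median log2 change was 0.15. Slc22a12, the apical urate exchanger URAT1, had 46.5, 37 and 49.9 CPM in proximal KO libraries, against 20.8, 31.8, 23.6 and 26.4 CPM in proximal WT libraries. The groups did not overlap, and its log2 change was 0.79 ± 0.18 (SE, limma adjusted p = 0.137). Slc22a2, the basolateral organic cation carrier OCT2, had 71.6, 50.6 and 82.6 CPM in KO libraries, against 37.3, 46.4, 30.1 and 55.7 CPM in WT libraries, with overlap (0.69 ± 0.22, limma adjusted p = 0.446). Slc22a26, a further relative, was 4.63, 1.22 and 0.154 CPM in KO libraries 4, 5 and 7, against 0.182 to 0.265 CPM in WT libraries. It was thus high in the libraries that were high for Slc22a7 and Slc22a19.

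The genes that drive basolateral uptake gave 0 calls of 8 tested, with a median log2 change of 0.12. Slc13a3, the dicarboxylate carrier, had 145, 80.5 and 190 CPM in proximal KO libraries, against 96.3, 109, 72.7 and 99.2 CPM in proximal WT libraries. As for Slc22a6, KO library 5 lay inside the WT range and the other 2 above it (0.47 ± 0.25, limma adjusted p = 0.733). Of the 15 genes of apical exit and other organic anion uptake, 13 passed the filter, 11 were above 0 with a median of 0.45, and 1 rose. That was Abcc4 (MRP4), an apical exporter of organic anions, with 18.3, 32.6 and 27 CPM in KO libraries, against 13.8, 9.57, 10.5 and 9.07 CPM in WT libraries (1.24 ± 0.21, limma adjusted p = 0.0381). Slco1a1 (3.78 ± 0.71, adjusted p = 0.0572), an uptake carrier for bile acids and steroid conjugates, Slco1a6 (0.84 ± 0.18, adjusted p = 0.0989) and Slc17a3 (0.85 ± 0.18, adjusted p = 0.0991) were short of the limma threshold. Slc17a3, an organic anion and urate carrier, had 136, 121 and 172 CPM in KO libraries, against 69.1, 100, 69.4 and 77.2 CPM in WT libraries, without overlap. Among 12 transcription factors of proximal transporters 0 were called, and the median was 0.12. The log2 change was -0.02 ± 0.16 for Hnf4a (SE, limma adjusted p = 0.984).

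The genes whose levels followed each transporter most closely over the 7 proximal libraries were ranked among 2439 genes of at least 10 CPM, by the root mean square difference of log2(CPM + 1) after each gene was centred on its own mean. Slc22a6 was closest to Slc22a2 (0.12), Cyp4b1 (0.15) and Amacr (0.17). The closest to Slc22a8 included Ybx1 (0.059) and Mlec (0.099). Slc22a28 was closest to Timp3 (0.089), Trpv4 (0.089) and Psmd2 (0.095), and those closest to Slc22a30 included Clic4 (0.093) and Vdr (0.13). These values describe 7 libraries of both genotypes and carry no test.

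In the authors' deposited table of proximal KO and WT tubules, Cldn10 had a log2 fold change of -12.216, which sets its direction as KO over WT. The authors' deposited table gave 0.669 for Slc22a6 (adjusted p = 0.343), 0.448 for Slc22a8 (0.462), 0.592 for Slc22a30 (0.144), 0.103 for Slc22a28 (0.997), -0.44 for Slc22a29 (0.95), 3.567 for Slc22a7 (0.558) and 4.099 for Slc22a19 (0.259). For Slc22a13 the authors' deposited table gave 3.909 and no p-value. In the authors' deposited table of the distal tubule, none of the 8 genes had an adjusted p-value.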

How the data were processed

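Counts per gene for 15 libraries came from the whole-number table the authors deposited, which holds raw counts. Its unit is recorded as other because its columns are named by numbers only. Tools given in the submitters' processing notes, without roles, are CASAVA 1.8, STAR 2.5 and DESeq2 1.24.0, and the build is GRCm38, and the labels' protocols name an RNeasy Plus Micro extraction and Nextera XT libraries. The log2 fold changes and p-values of the 2 comparison tables are those the authors deposited. Strand use in counting is not given in the sources used here.

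Counts were scaled by TMM (30% of log ratios and 5% of intensities trimmed), genes with about 10 counts in as many libraries as the smaller group and 15 in total were kept, and KO with WT, proximal with distal, and their interaction were compared with limma-voom 3.58.1 in R 4.3.3, with Benjamini-Hochberg adjustment over all genes tested and a threshold of 0.05. The procedure was tested on simulated data. Single genes were also compared by an exact two-sided permutation test of CPM. Motifs and identities were computed from RefSeq promoters and GENCODE M21 transcripts. Of the genes in the table, 24945 had no count in any library.

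All 8 genes were named. From the other lists, at most 4 genes with the smallest p were named with any called member; the Slc22a28 and Slc22a30 pair, Slc22a26, Hnf4a, Slc7a13, Kap, Slc5a1 and the sex-linked genes were picked once values had been seen. Some genes that the naming rules would give are not reported here. The genes and lists were chosen with earlier results of these data known. Alternatives were another scaling, filters, weights, limma-trend, leaving out libraries, library number as covariate, and 1 fit of all libraries. The number of libraries and the low distal counts limit precision.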

Additional observations from a re-analysis of the deposited data

Results flagged for a closer look

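In the distal WT group of 4, a library stood apart from the other 3 for 3 of the 8 genes, each time because the others had no count. Slc22a7 was at 0.0229 CPM in distal WT library 2, which is 1 count, against 0 in the other 3. Slc22a13 was at 0.0229 CPM in the same library, also 1 count, against 0 in the other 3. Slc22a19 was at 0.15 CPM in distal WT library 4, which is 7 counts, against 0 in the other 3. These 3 were found among 27 sets of values looked at, and chance marks about 1 set in 20 at the level used, a rate not tested for such sparse counts. Where the other 3 libraries are at 0, any count in the fourth marks the set by construction.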

How the results depend on the processing

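The number of the 8 genes called in the proximal KO and WT comparison was 0 under all 17 alternatives, and it was 0 for the difference between segments under every alternative run. In the distal comparison none of the 8 passed the filter except with no filter (7 tested) and in 1 fit of all libraries (8 tested), both with 0 calls, so the other alternatives there say nothing of stability. In WT 5 were called higher in proximal than distal tubule under every alternative. With no filter and in 1 fit of all libraries 8 were tested in WT, and Slc22a7, Slc22a13 and Slc22a19 were not called. In KO every gene tested was called higher in proximal tubule, 5 to 8 of them. Genes passed the filter through their proximal counts, so these counts of calls describe the difference and are no test of its stability. The proximal log2 change of Slc22a6 ran from 0.37 to 0.94, of Slc22a8 from 0.24 to 0.55 and of Slc22a7 from 2.05 to 5.55. It ran from 1.88 to 3.76 for Slc22a13, from 2.24 to 4.9 for Slc22a19 and from -0.6 to -0.34 for Slc22a29. For Slc22a30 it ran from 0.52 to 0.71 with 1 library left out, and its lowest limma adjusted p under any alternative was 0.0587. The change of 0.33 belongs to Slc22a28 and Slc22a30 summed to 1 gene. Slc22a28 turned to -0.04 with both libraries of the lower numbers left out. The segment difference of Slc22a6 turned to -0.20 without proximal KO replicate 7, to -0.09 without proximal WT replicate 3 or distal WT replicate 3, to -0.08 without distal KO replicate 7, to -0.03 without distal WT replicate 4 and to -0.00 without proximal WT replicate 1. The cause was not tested. Over all genes, the proximal calls numbered 22, and 80 with no filter, 36 with a stricter one, 40 with sample weights, 46 at an adjusted p under 0.1, 123 in 1 fit of all libraries and 2 to 18 with 1 library left out. The distal calls over all genes were 4 with no filter and otherwise 0, and the calls of the segment difference were at most 5, with limma-trend.

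Replicate numbers are shared by some proximal and distal libraries. The labels do not say that shared numbers mean pairs, so these libraries were not taken as pairs. Correlations of their deviations from the group means were -0.13, -0.11 and 0.1 in WT and -0.17 and -0.47 in KO. Libraries of the same genotype with unlike numbers gave -0.31 to 0.52, and such values cannot decide whether libraries are paired. With the replicate block, 5 genes in WT and 6 in KO were called, and over all genes 5830 in WT and 3545 in KO, against 6631 and 5621 without it. At the depth of the distal libraries, levels of a few counts per library limit every statement on them.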
